A study of Mus musculus with 22 samples.

Results

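The genes described here are 8 transcription factors of the eye field and of retinal progenitor cells: Pax6, Six3, Six6, Rax, Lhx2, Sox9, Vax2 and Tbx5. They were taken by name, as factors that build the early eye, and are 8 of the 18193 genes that could be named on the array. They were followed in 22 single mouse retinal cells through 17 probe sets: 5 for Pax6, 3 each for Six3 and Sox9, 2 for Tbx5 and 1 for each of the other genes. Of these, 13 were ganglion cells, whose axons form the optic nerve, 6 were amacrine cells, mostly inhibitory neurons of the inner retina, and 3 were photoreceptors. The ganglion cells came from E12.5 (3 cells), E13.5 (1), E14.5 (2), E15.5 (3) and the day of birth, P0 (4). The amacrine cells came from E16.5 (1) and P0 (5), and the photoreceptors from P0 (2) and an adult retina (1 rod). The labels give the outbred CD1 strain for 9 of the 22 cells and name no strain for the other 13; no mutation, treatment, animal or litter is named for any cell. Retinas were dissociated with papain, and the cDNA of each cell was amplified by 35 cycles of PCR before hybridisation. Cell types were assigned from the profiles themselves, after the arrays had been run.

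The eye field is the patch of anterior neural plate that forms both eyes. Pax6, Six3, Six6, Rax and Lhx2 are switched on there and act together to specify the eye, and most of them go on to be expressed in the dividing progenitors of the retina. As neurons are born some of these factors are turned off and others are kept in particular cell types: Pax6 in ganglion and amacrine cells, Rax in developing photoreceptors, and Lhx2, Rax and Sox9 in Müller glia. Vax2 and Tbx5 divide the retina along its dorsoventral axis, with Vax2 in the ventral and Tbx5 in the dorsal part.

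Signals are the MAS5 values deposited for each array, on a linear scale. Those of P0 amacrine cell B1 were first multiplied by 27.6, as described below. A gene is called held in a cell at a signal of 1000 or more, and log2 values were taken after raising signals to a floor of 200 (log2 7.64). Where a gene had several probe sets, the one with the highest mean stands for it unless another is named. Between 1517 and 4351 genes were held per cell. Ganglion and photoreceptor markers separated the types as labelled, and amacrine markers did not: 7 to 11 of 11 ganglion markers were held in each ganglion cell, 2 to 5 of 10 amacrine markers in each amacrine cell, and 7 to 9 of 9 photoreceptor markers in each photoreceptor. In the other cell types there were 0 to 4 ganglion markers and 0 or 1 photoreceptor marker. Amacrine markers numbered 0 to 3 in ganglion cells and 2 to 4 in photoreceptors. The types were assigned from these same profiles, so the marker counts are not an independent check of the labels. The comparisons of types below share this limit. Amacrine cell B1 held more ganglion markers (3) than amacrine markers (2), and the adult rod held 4 amacrine markers, more than amacrine cells B1 (2) and D1 (3). The adult rod and the E16.5 amacrine cell J6 stood apart, with median signals over all named probe sets of 197.5 and 217.1 against at most 87.1 in any other cell, and the comparisons were rerun without each and without both. Both E14.5 ganglion cells held many genes of dividing progenitors, 8 of 13 in D8 and 11 of 13 in E1, beside 10 and 8 ganglion markers.

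For 4 of the 8 genes, 6 promoter windows of 300 bases were taken from RefSeq (GRCm38.p6). They ran from 250 bases before to 50 bases after the annotated start. Windows on 1 chromosome were left out for the 8 genes but kept in the counts over all windows. A gene without a window here may therefore still have one in RefSeq. The windows of Pax6 (the first of its 2), Six3 and Six6 are shown because these were the 3 factors held in the most cells. They lie at chr2:105668646-105668945, chr17:85620584-85620883 and chr12:72939632-72939931, all on the plus strand and written 5′ to 3′. Capitals mark CCAAT, a common promoter motif, on either strand (read as ATTGG where it lies on the minus strand).
Pax6: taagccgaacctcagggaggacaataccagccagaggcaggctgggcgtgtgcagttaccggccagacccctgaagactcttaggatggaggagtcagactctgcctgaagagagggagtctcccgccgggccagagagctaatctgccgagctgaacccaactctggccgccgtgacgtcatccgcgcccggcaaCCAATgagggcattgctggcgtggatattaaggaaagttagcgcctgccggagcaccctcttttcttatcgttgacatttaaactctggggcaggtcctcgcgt
Six3: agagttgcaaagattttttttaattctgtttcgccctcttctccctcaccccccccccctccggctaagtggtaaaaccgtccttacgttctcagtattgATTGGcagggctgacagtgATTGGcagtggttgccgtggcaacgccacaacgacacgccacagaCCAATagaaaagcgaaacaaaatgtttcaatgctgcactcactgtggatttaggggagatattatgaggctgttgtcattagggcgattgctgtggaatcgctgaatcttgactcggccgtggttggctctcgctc
Six6: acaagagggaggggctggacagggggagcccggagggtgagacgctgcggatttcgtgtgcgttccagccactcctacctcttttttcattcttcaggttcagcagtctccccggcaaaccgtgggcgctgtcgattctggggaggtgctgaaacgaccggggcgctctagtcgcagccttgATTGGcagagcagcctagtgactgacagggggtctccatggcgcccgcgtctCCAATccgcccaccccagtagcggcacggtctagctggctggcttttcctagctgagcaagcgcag
The motif CCAAT occurred 3 times in the Six3 window, 2 times in the Six6 window and 1 time in the Pax6 window, and was absent from the second Pax6 window and from both Lhx2 windows. On both strands it was found in 12289 of 32851 RefSeq windows of this length (37.4%), beside 3 of the 6 windows here. The homeodomain core TAATTA, searched on both strands, was in none of the 6 windows and in 5.29% of all windows. The Six3 and Six6 windows shared the run TTGATTGGCAG, which contains 1 of the CCAAT matches of each; it lay 153 to 143 bases upstream of the Six3 start and 71 to 61 bases upstream of the Six6 start. This run was picked after the sequences had been read, and was present in 12 of the 32851 windows (0.0365%). A match is a description of the letters in a window and not a binding site.

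Pax6, the paired and homeobox factor needed for eye formation and for the range of neurons a progenitor can make, was by far the most widely held of the 8. Its main probe set, 1419271_at, was held in 20 of the 22 cells: all 13 ganglion cells, all 6 amacrine cells and 1 of the 3 photoreceptors. Among the 18193 named genes, 223 (1.23%) were held in 20 or more cells, and 132 (0.726%) were held in all 19 ganglion and amacrine cells.
The 3 E12.5 ganglion cells had Pax6 signals of 15612 (E4), 24931 (F3) and 17375 (F6), and the E13.5 cell had 20568. The E14.5 cells had 14317 (D8) and 12282 (E1), and those of E15.5 had 27591 (B1), 18691 (B5) and 41061 (C7). At P0 the ganglion cells had 16042 (A3), 32149 (C6), 26819 (A6) and 12708 (F1). Over the 13 ganglion cells the highest signal was 3.34 times the lowest. The 2 E14.5 cells were below all cells of E12.5, E13.5 and E15.5, and the P0 cells ran from 12708 to 32149.
The amacrine cells spread more widely. The E16.5 cell J6 had a Pax6 signal of 11720, the lowest of all ganglion and amacrine cells, and the P0 cells had 79199 (A4), 63769 (D1), 14708 (F6), 57774 (G3) and 32041 (B1). The SD of log2 Pax6 signal was 1.16 in the 6 amacrine cells and 0.54 in the 13 ganglion cells. In 3 of the 5 P0 amacrine cells Pax6 was above the highest ganglion cell.
The photoreceptors split. P0 cell H1 had a Pax6 signal of 15313, inside the ganglion cell range, while P0 cell E1 had 62.4 and the adult rod 172, both below the floor. By mean log2 signal over cells, the order of the groups was P0 amacrine (15.37 ± 0.98, SD, n = 5), E15.5 ganglion (14.76 ± 0.57, n = 3), E13.5 ganglion (14.33, n = 1), P0 ganglion (14.32 ± 0.63, n = 4), E12.5 ganglion (14.21 ± 0.35, n = 3), E14.5 ganglion (13.69 ± 0.16, n = 2), E16.5 amacrine (13.52, n = 1), P0 photoreceptors (10.77 ± 4.43, n = 2) and the adult rod (7.64, n = 1). From P0 amacrine down to E12.5 ganglion cells, neighbours in this order differed by less than the larger of their SDs. The E12.5 and E14.5 ganglion cells differed by more than either SD, and their cells did not overlap.

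**Figure D1:**
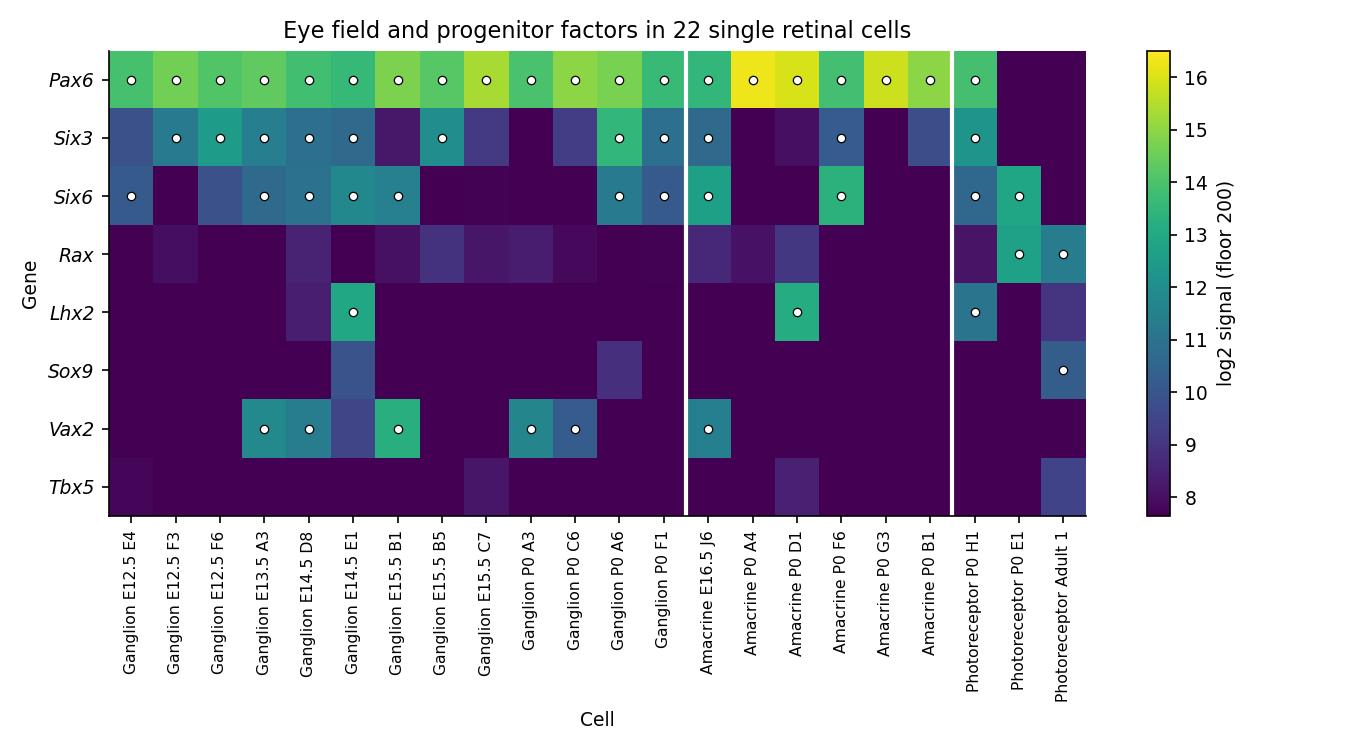
Log2 signal (floor 200) of the 8 factors (rows) in each of the 22 single cells (columns), by cell type and stage, with white lines between ganglion cells, amacrine cells and photoreceptors. A white dot marks a gene held at a signal of 1000 or more; each gene is shown by its main probe set. That of Pax6 is held in 20 cells, and Rax in the other 2.

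The 5 Pax6 probe sets did not give the same picture. The second brightest, 1452526_a_at, was held in 9 of 13 ganglion cells, 5 of 6 amacrine cells and photoreceptor H1 (signal 9054), and was at 48.9 in photoreceptor E1 and 87.7 in the adult rod. It was below 1000 in ganglion cells E4 of E12.5 (216), C7 of E15.5 (9.33), A3 and A6 of P0 (78.5 and 32.5) and amacrine cell B1 (486.5), although the main probe set was bright in all of these. The other 3 probe sets were dim in most cells, with highest signals of 4248 in amacrine cell G3 (1425960_s_at), 4177 in amacrine cell B1 (1437816_at) and 1083 in the adult rod (1456342_at). In the adult rod these 3 read 1581, 1329 and 1083, where both brighter probe sets were below the floor. The median signal of the adult rod over all named probe sets was high (197.5), and its dim Six3 probe set 1426638_at read 1094. What part this has in the 3 dim Pax6 signals was not tested. Which transcripts each probe set detects was not analysed here.

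**Figure D2:**
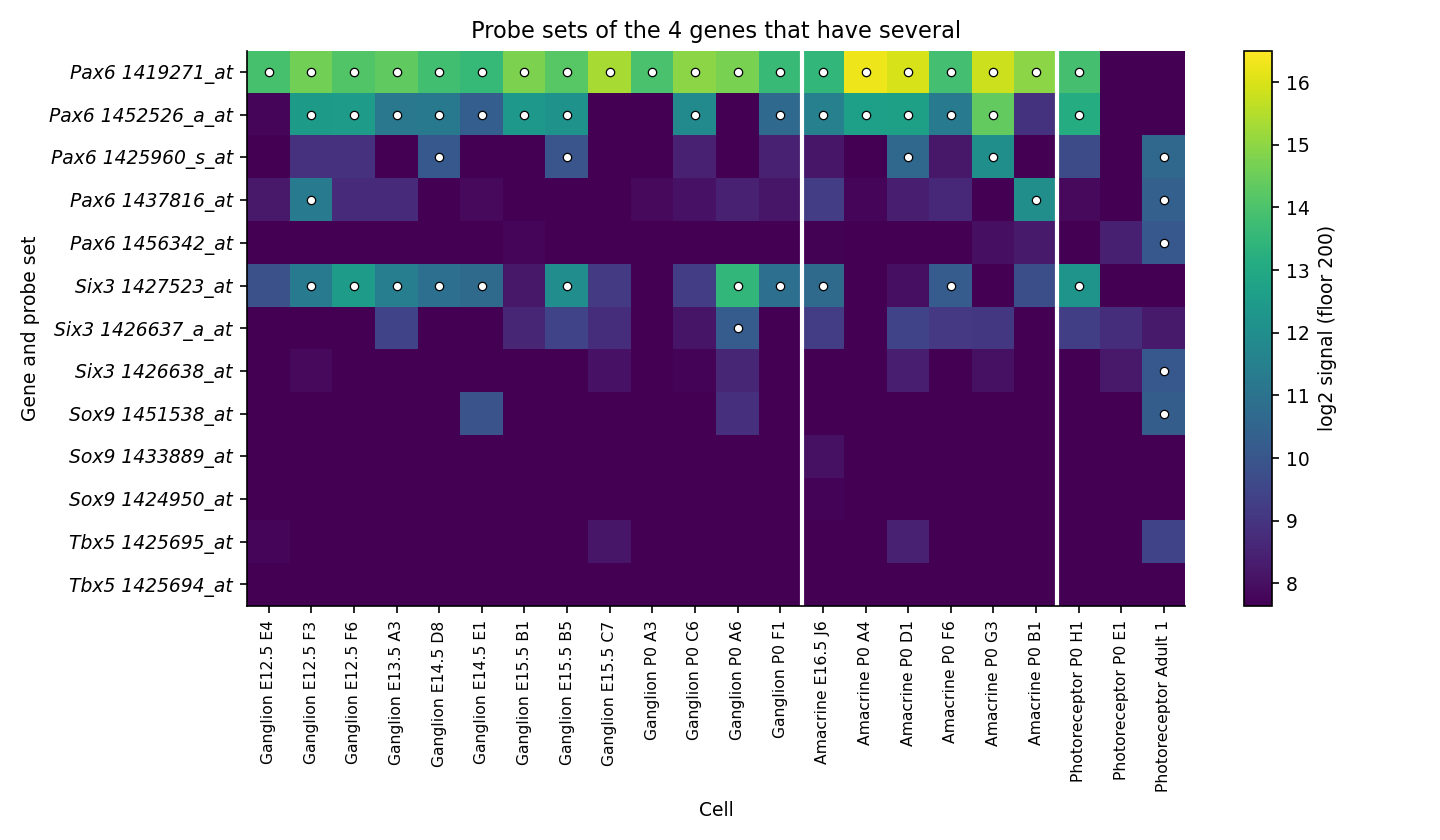
Log2 signal (floor 200) of each probe set of Pax6, Six3, Sox9 and Tbx5 (rows) in the 22 cells (columns); a white dot marks a signal of 1000 or more. Only the first Pax6 row is lit in every ganglion and amacrine cell, and the adult rod shows a dim signal in 3 Pax6 rows that are dark in most other cells.

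Six3 and Six6, related homeobox factors of the optic vesicle that repress genes together with Groucho cofactors, were each held in 11 of the 22 cells. Six3 was held in 8 of 13 ganglion cells, 2 of 6 amacrine cells and 1 of 3 photoreceptors; Six6 was held in 7, 2 and 2. At least as many cells held 2031 of the 18193 genes (11.2%).
Six3 signals at E12.5 were 908 (E4), 2527 (F3) and 5983 (F6), and the E13.5 cell had 2754. The E14.5 cells had 1864 (D8) and 1660 (E1), and those of E15.5 had 299 (B1), 4066 (B5) and 567.9 (C7). At P0 the ganglion cells ranged from 130.0 (A3) and 606 (C6) to 1886 (F1) and 11580 (A6), the highest Six3 signal of any cell. No stage of ganglion cells was without a cell that held Six3, and the embryonic and P0 cells overlapped.
In amacrine cells Six3 read 1661 in J6 of E16.5 and, at P0, 12.6 (A4), 257 (D1), 1199 (F6), 192 (G3) and 872 (B1). Photoreceptor H1 had 4848, while photoreceptor E1 had 30.5 and the adult rod 182. The 2 amacrine cells that held Six3 were near the threshold of 1000, and at a threshold of 2000 no amacrine cell held it, against 5 ganglion cells.
Mean log2 Six3 signal was highest in E13.5 ganglion cells (11.43, n = 1), then E12.5 (11.23 ± 1.36, SD, n = 3), E14.5 (10.78 ± 0.12, n = 2), E16.5 amacrine (10.70, n = 1), P0 ganglion (10.32 ± 2.50, n = 4), P0 photoreceptors (9.94 ± 3.25, n = 2), E15.5 ganglion (9.79 ± 1.96, n = 3), P0 amacrine (8.66 ± 1.24, n = 5) and the adult rod (7.64). Each step down to the P0 amacrine cells was smaller than the larger SD of the groups beside it. The other Six3 probe sets were held in 1 cell each: 1426637_a_at in P0 ganglion cell A6 (1207) and 1426638_at in the adult rod (1094). The antisense neighbour Six3os1 was held in 7 cells, in 6 of which Six3 was held too; the label was put on double-stranded PCR product, so strand does not tell the transcripts apart.

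Six6 at E12.5 read 1137 (E4), 166 (F3) and 924 (F6), and the E13.5 cell had 1684. The E14.5 cells had 1994 (D8) and 3484 (E1), and those of E15.5 had 2926 (B1), 52.0 (B5) and 207 (C7). At P0 the ganglion cells had 70.9 (A3), 68.3 (C6), 2444 (A6) and 1151 (F1). Within E15.5 and within P0 some ganglion cells held Six6 and others were at or near the floor.
The amacrine cells were split more sharply. Six6 read 6540 in J6 and 10403 in F6 of P0, and between 38.8 and 109.6 in the other 4 P0 cells, all at the floor. Both P0 photoreceptors held Six6, H1 at 1559 and E1 at 7601, and the adult rod was at 46.6.
In mean log2 signal the order was E16.5 amacrine (12.68, n = 1), P0 photoreceptors (11.75 ± 1.62, SD, n = 2), E14.5 ganglion (11.36 ± 0.57, n = 2), E13.5 (10.72, n = 1), E12.5 (9.22 ± 1.37, n = 3), P0 ganglion (9.18 ± 1.83, n = 4), E15.5 ganglion (8.95 ± 2.22, n = 3), P0 amacrine (8.78 ± 2.55, n = 5) and the adult rod (7.64). The E13.5 cell lay further than 1 SD from the groups on either side of it. All other steps down to the adult rod were smaller than the larger SD beside them.

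Six3 and Six6 were held together in 8 cells, 1 without the other in 3 cells each way, and neither in 8. The 8 cells with both were ganglion cells A3 of E13.5, D8 and E1 of E14.5 and A6 and F1 of P0, amacrine cells J6 and F6, and photoreceptor H1. Their log2 signals had a Pearson correlation of 0.31 over the 22 cells. These are the genes whose promoter windows share the 11-base run given above, and the data do not show whether that run has any part in either gene's level.

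**Figure D3:**
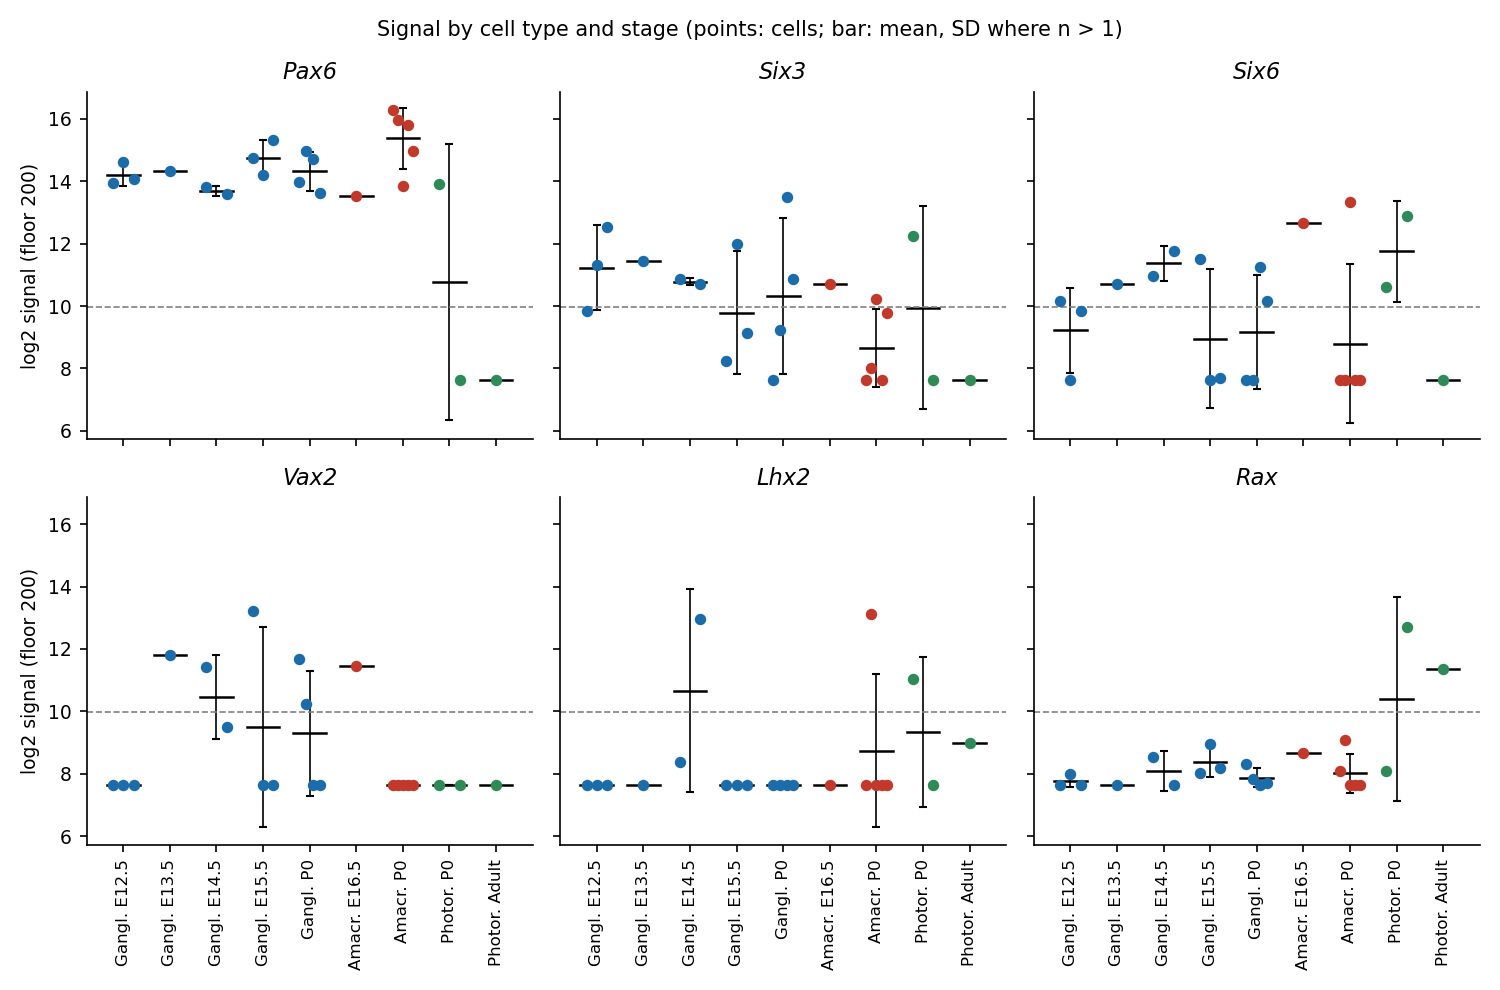
Log2 signal (floor 200, dashed line at a signal of 1000) of the 5 tested factors and Rax by cell type and stage; each point is 1 cell, the horizontal bar is the mean and the error bar the SD where there is more than 1 cell. Pax6 lies above the dashed line in every ganglion and amacrine cell, while Six3, Six6 and Vax2 have cells above it and at the floor within the same stage.

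Vax2, the ventral homeobox factor, was held in 5 of 13 ganglion cells, 1 of 6 amacrine cells and no photoreceptor. At least as many cells held 4515 of the 18193 genes (24.8%). The ganglion cells were A3 of E13.5 (3579), D8 of E14.5 (2727), B1 of E15.5 (9487) and A3 and C6 of P0 (3283 and 1202), and the amacrine cell was J6 of E16.5 (2798). The 3 E12.5 ganglion cells read 7.22, 12.4 and 122, the 5 P0 amacrine cells 8.89 to 76.4, and the photoreceptors 25.6 to 57.5. E1 of E14.5 had 723, and the other 4 ganglion cells, B5 and C7 of E15.5 and A6 and F1 of P0, were below the floor. Within E15.5 and within P0, ganglion cells with a clear Vax2 signal thus stood beside cells at the floor.
Tbx5, its dorsal counterpart, was held in no cell: its highest signals were 685 in the adult rod and 354 in amacrine cell D1. So at this threshold the dorsoventral pair left cells with Vax2 and cells with neither, and no cell with Tbx5. After quantile normalization of the arrays Tbx5 passed the threshold in 1 ganglion cell and 1 amacrine cell. The position of each cell in the retina is not named in the labels.

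Rax, the retinal homeobox factor that starts the eye field and later works with Crx on photoreceptor genes, was held in 2 cells, both photoreceptors. Of the 18193 genes, 8508 (46.8%) were held in at least as many cells. P0 photoreceptor E1 had 6674 and the adult rod 2627, while photoreceptor H1 had 273. In the 13 ganglion cells Rax ran from 15.2 through a median of 229 to 490.3, and in the 6 amacrine cells from 33.6 through 221 to 542. In these 2 cells the main Pax6 probe set was below the floor; in E1 the other 4 Pax6 probe sets were below 1000 as well, while in the adult rod 3 of them were at 1083 to 1581. Rax was held in too few cells to enter the test, which took genes held in at least 3 cells.
After quantile normalization of the arrays Rax passed the threshold in 2 ganglion cells and 1 amacrine cell as well, and the main Pax6 probe set stayed above it in all cells of these types. The photoreceptor markers Nrl and Crx were held in all 3 photoreceptors. Nrl, which sets rod fate, read 12550 in H1, 26769 in E1 and 405003 in the adult rod. Crx read 27164, 38339 and 324718 in the same cells, and was also held in ganglion cell E1 of E14.5 (3612).

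Lhx2, the LIM homeobox factor that keeps progenitors dividing and later marks Müller glia, was held in 3 cells, 1 of each type. At least as many cells held 7183 of the 18193 genes (39.5%). These were ganglion cell E1 of E14.5 (7956), P0 amacrine cell D1 (8987) and P0 photoreceptor H1 (2121). Outside these, the adult rod had 506 and ganglion cell D8 of E14.5 332, and all other cells were at the floor.
Sox9, the progenitor and Müller glia factor, was held only in the adult rod, at 1237, and came next at 973 in E1 of E14.5 and 470.0 in A6 of P0. Its other 2 probe sets did not exceed 266 and 215 in any cell, and read 16.1 and 20.1 in the adult rod. The median signal of that rod was high (197.5). Of the 18193 genes, 10988 (60.4%) were held in at least 1 cell.
Progenitor and glial genes were read beside these 2 factors. Ganglion cell E1 of E14.5 held 11 of 13 progenitor and cell cycle genes, photoreceptor H1 6 and amacrine cell D1 3, against 0 to 8 in the other cells; the proliferation marker Mki67 was held in E1 alone, at 8637. Each of the 3 cells held 4 of 10 Müller glia markers, against 0 to 3 in the other cells. The adult rod, the cell that held Sox9, held 3 of the 13 progenitor genes and 2 of the 10 Müller glia markers. What part such transcripts have in the Lhx2 and Sox9 signals was not tested.

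Between 1 and 4 of the 8 factors were held in any 1 cell: 1 in 4 cells, 2 in 9, 3 in 4 and 4 in 5. Pax6, Six3, Six6 and Vax2 together were held by ganglion cells A3 of E13.5 and D8 of E14.5 and by amacrine cell J6, and Pax6, Six3, Six6 and Lhx2 by ganglion cell E1 of E14.5 and photoreceptor H1. The cells with Pax6 alone were ganglion cell C7 of E15.5, which held the fewest genes of any cell (1517), and amacrine cells A4, G3 and B1 of P0. The 5 cells with 4 factors held 3021 to 4136 genes, but the cell with the most genes, F1 of P0 (4351), held 3 factors, and ganglion cells F6 and F3 of E12.5 and A3 of P0 (3608, 3493 and 3480 genes) held 2 each. Whether the 2 counts are related was not tested. Sox2, another progenitor factor, was held in 6 cells: D8 and E1 of E14.5 (9252 and 12986), amacrine cells J6, F6 and B1 (31318, 28154 and 34281) and photoreceptor H1 (10393). All 5 of these cells other than B1 were among those with both Six3 and Six6.

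**Figure D4:**
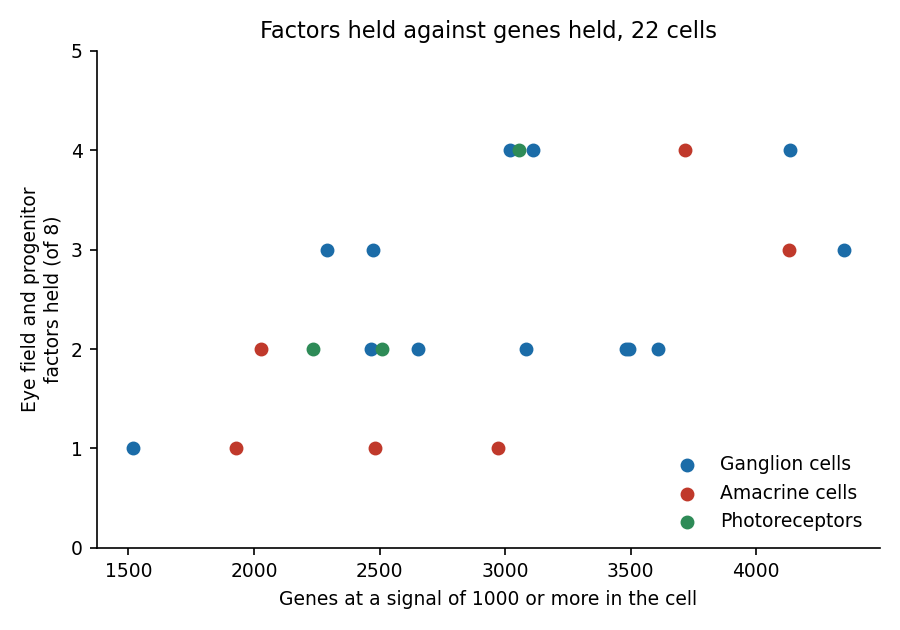
Number of the 8 factors held at a signal of 1000 or more (vertical axis) against the number of all genes held in the same cell (horizontal axis), 1 point per cell, coloured by cell type. The 5 cells with 4 factors are 3 ganglion cells, 1 amacrine cell and 1 photoreceptor, and hold 3021 or more genes.

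Ganglion and amacrine cells, the types named in the title of the study, were compared over all stages. None of the 5 tested factors passed: Pax6, Six3, Six6, Lhx2 and Vax2 all had adjusted p-values of 0.999 (limma, Benjamini-Hochberg over 7183 genes). Across all tested genes 5 passed (0.0696%), 3 of them higher in ganglion cells (0.0418%), and 283 had an unadjusted p under 0.05. Cells taken from 1 type at 1 stage may share an animal, so the mean of their log2 values counts as 1 sample. There were 5 ganglion, 2 amacrine and 2 photoreceptor samples, and p-values rest only on the spread between these 9 samples. In this and the photoreceptor comparison, a gene's own spread did not enter its p-value. The fit used the trend of spread over all genes instead.
The difference in log2 signal, ganglion minus amacrine, was -0.18 ± 1.30 (SE) for Pax6, 1.03 ± 1.43 for Six3, -0.84 ± 1.43 for Six6, 0.06 ± 0.89 for Lhx2 and 0.19 ± 1.29 for Vax2. Their median of 0.06 lay beside a median of -0.06 over all genes tested. With errors above 1 log2 unit for 4 of the 5, differences of such a size were not detectable here. In simulated data, 49.05% of genes shifted by 4 log2 units were recovered in this comparison. Shifted values could fall below the floor there, which real values cannot, so this share may not hold for factors near the floor. False calls were more frequent than the nominal share, with a mean of 12 per simulation. Without the 1 cell J6 the difference was -1.11 for Pax6, 2.05 for Six3, 1.10 for Six6, -0.49 for Lhx2 and 2.10 for Vax2, those of Six6 and Lhx2 being opposite in sign, and no factor passed (adjusted p of 1 each). The number of genes called became 3 without J6 and 0 without J6 and the adult rod.
At P0 alone, where both types were taken, the 4 ganglion and 5 amacrine cells are 1 sample each and give no test. The differences were -1.05 for Pax6 (means 14.32 and 15.37), 1.66 for Six3 (10.32 and 8.66), 0.39 for Six6 (9.18 and 8.78), 1.66 for Vax2 (9.30 and 7.64) and -1.10 for Lhx2 (7.64 and 8.74), beside a median of 0.23 over all genes. For none of the 5 were the cells of the types apart, as they were for 143 of the 7183 genes (1.99%).

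Photoreceptors were compared with the mean of ganglion and amacrine cells, and 1 factor of the 5 passed. The log2 signal of Pax6 was lower in photoreceptors, with a difference of -5.14 ± 1.28 (SE) and an adjusted p of 0.00657 (limma); the type means were 14.26 in ganglion, 14.44 in amacrine and 9.21 in photoreceptor cells. Of the 7183 genes 153 passed (2.13%), 108 higher (1.5%) and 45 lower (0.626%) in photoreceptors. The median over all genes was -0.57. In simulated data, false calls in this comparison were more frequent than the nominal share. The other differences were -1.40 ± 1.40 for Six3 (adjusted p 0.675), -0.61 ± 1.40 for Six6 (0.866), -2.0 ± 1.27 for Vax2 (0.534) and 0.94 ± 0.87 for Lhx2 (0.653). The median of the 5 was -1.40. Without the adult rod the differences were -0.25 for Six3 and 1.44 for Six6, without J6 -0.89 for Six3, 0.36 for Six6 and -1.05 for Vax2, and without both 0.26 for Six3 and 2.41 for Six6, none of them past the threshold. The 153 genes called became 77 without the rod, 39 without J6 and 32 without both.
The low photoreceptor mean of Pax6 comes from P0 cell E1 and the adult rod. Without photoreceptor E1 the difference was -3.58 and the adjusted p 0.133; without H1 it was -6.71 (0.000351), without the adult rod -3.58 (0.0134), without J6 -5.61 (0.0490) and without both the rod and J6 -4.04 (0.0497). It depends on the probe set too: 1452526_a_at gave -2.15 ± 1.43 (0.552), 1425960_s_at 1.16 ± 1.02 (0.639), 1437816_at 0.36 ± 1.01 (0.888), and the mean over all 5 probe sets -0.89 (0.677).
The genes most like Pax6 over the 22 cells, by Pearson correlation of log2 signal, were Ran, a GTPase of nuclear transport (0.93), the translation factor Eif4h (0.90) and the RNA-binding protein Hnrnpdl (0.89). All 3 were held in every ganglion and amacrine cell and in photoreceptor H1, and in neither of the other photoreceptors; Ran read 23110 in H1 and 23.7 and 329 in the others. These are genes that most cells use, and they were below the threshold in the 2 cells where the main Pax6 probe set was at the floor. What part this has in the Pax6 difference was not tested.

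**Figure D5:**
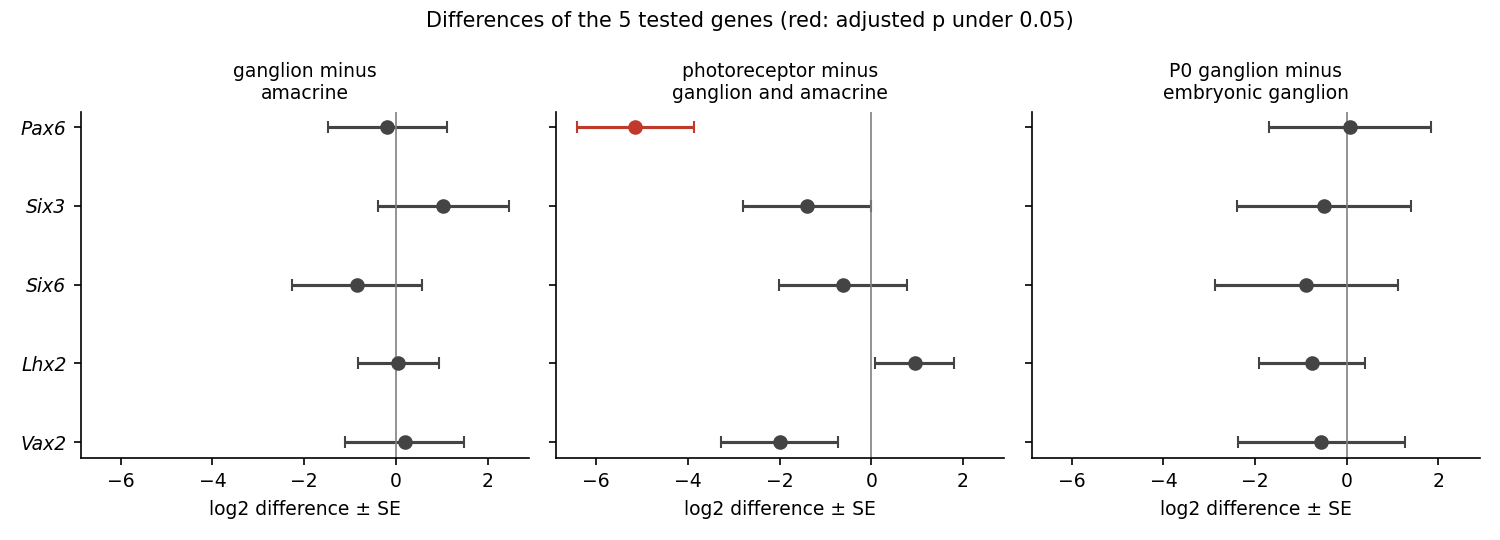
Log2 difference (points) and its SE (bars) for the 5 tested factors in each of the 3 comparisons, with red for an adjusted p under 0.05. Pax6 in photoreceptors, at -5.14, is the only one in red.

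Newborn ganglion cells were compared with those of the embryo to ask whether the factors are lost as the cells mature, and no factor passed. In log2 signal, P0 minus embryonic, the differences were 0.08 ± 1.77 (SE) for Pax6, -0.49 ± 1.90 for Six3, -0.88 ± 1.99 for Six6, -0.55 ± 1.83 for Vax2 and -0.76 ± 1.16 for Lhx2, all with an adjusted p of 1 (limma). Of the 7183 genes 2 passed (0.0278%), and 214 had an unadjusted p under 0.05. The P0 group is a single sample here, assumed to vary like the others. In simulated data, 22.35% of genes shifted by 4 log2 units were recovered in this comparison, again with values allowed to fall below the floor. The lack of calls thus does not show that the factors are kept. The median of the 5 factors was -0.55 beside 0.13 over all genes. Without the P0 cell A3 the Six3 difference turned to 0.40, and without the E13.5 cell that of Vax2 to 0.10.
Against the youngest cells alone, P0 minus E12.5, the untested differences were 0.11 for Pax6, -0.91 for Six3, -0.04 for Six6, 1.66 for Vax2 and 0 for Lhx2, which was at the floor in all 7 cells. For none of the 5 were the stages apart, as they were for 436 of the 7183 genes (6.07%), and the median over all genes was 0.08. Vax2 was at the floor in the 3 E12.5 cells and held in 2 of the 4 P0 cells. P0 and E12.5 ganglion cells are also the cells of the comparisons above, so these values are not independent of them.

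Genes of the same pathways, from lists chosen with earlier results of these data known, gave few calls. Of 15 further eye field and optic vesicle factors measured, 5 were tested and none passed in any of the 3 comparisons over all cells. The largest differences were those of Sox2, -3.95 ± 1.39 in ganglion minus amacrine cells (adjusted p 0.895, limma), and of Otx2, a factor of photoreceptor fate, 2.94 ± 0.98 in photoreceptors (0.0869). Without J6 that of Sox2 was -1.76; without the adult rod that of Otx2 was 6.11, with an adjusted p of 0.00141, and without both cells 0.0796. Their medians were 0.46, 0.76 and -1.11 in ganglion minus amacrine, photoreceptor and P0 minus embryonic comparisons, beside -0.06, -0.57 and 0.13 over all genes.
Of 13 dorsoventral axis genes 6 were tested and none passed; the nuclear receptor Nr2f1 had the largest difference, -2.69 ± 1.43 in ganglion minus amacrine cells (adjusted p 0.999, limma). Their medians were -0.01, -1.40 and 0.89.
Of 17 partners and cofactors of Six3, Six6 and Lhx2 8 were tested and none passed. Tle4, a Groucho corepressor, had a difference of -4.09 ± 1.44 in photoreceptors (adjusted p 0.123, limma), and Dach1, a corepressor that works with Eya proteins, one of 2.73 ± 1.47 in ganglion minus amacrine cells (0.999), which was 1.81 without J6. Their medians were 0.28, -1.20 and -1.09.
Of the 4 proneural genes measured 3 were tested, and Neurod1, a factor of photoreceptor and amacrine differentiation, rose in photoreceptors by 5.42 ± 1.44 (adjusted p 0.0139, limma). It was held in all 3 photoreceptors, at 18965 to 72217. The difference was 4.59 without the adult rod (adjusted p 0.294), 5.22 without J6 (0.140) and 4.40 without both (0.459). Atoh7 and Neurog2 did not pass in any comparison, and the medians were -3.03, 1.15 and -0.19.
Of 13 progenitor and cell cycle genes 10 were tested and none passed, with medians of 0.72, -0.36 and -1.65. In ganglion cells their mean log2 signal ran from 7.64 to 12.54, the highest 2 values being the E14.5 cells (10.72 and 12.54), and in the 4 P0 cells it ran from 7.64 to 8.79.
Of 10 Müller glia markers 4 were tested, and Clu, a secreted chaperone, was higher in photoreceptors by 5.94 ± 1.35 (adjusted p 0.00175, limma). It was held in H1 (8963) and the adult rod (246123), and read 113 in photoreceptor E1. Without the adult rod the difference was 2.17 (adjusted p 0.667), without J6 6.07 (0.0794), without H1 4.56 (0.0516) and without both the rod and J6 2.31 (0.814).

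For the other tested factors the genes most like them over the 22 cells correlated less closely. For Six3 they were Znrf1 (Pearson correlation 0.80), Trio (0.78) and Copb2 (0.74), for Six6 D8Ertd738e (0.85), Slc25a11 (0.79) and Ik (0.74), and for Vax2 Mpp3 (0.80), Slc25a20 (0.79) and Eif2b4 (0.77). For Lhx2 they were Ndc80 (0.86), a kinetochore protein, Exosc4 (0.84), an exosome subunit, and E2f1 (0.82), a factor of the cell cycle. Ndc80 read 3245 in E1 of E14.5, 10770 in amacrine cell D1 and 49 in photoreceptor H1, and E2f1 read 1940, 8592 and 9332 in the same cells. Each correlation is the highest among the 7183 tested genes over the same 22 arrays and shares their amplification and scaling, and those of Lhx2 rest on 3 cells.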

How the data were processed

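Each of 22 single cells of the mouse retina was profiled on 1 Affymetrix 430 2.0 array. The deposited values are signal intensity that the authors computed with MAS5, per the submitters' processing notes; its version is not given in the sources used here. In 21 arrays the 2% trimmed mean was 500; that of P0 amacrine cell B1 was 18.1, and its values were multiplied by 27.6. Of 45101 probe sets, 34945 had a single gene symbol in the platform annotation, of which 34754 were matched to RefSeq by gene number. Signals were raised to a floor of 200 and log2 transformed, and the probe set with the highest mean stood for each of 18193 genes. Where a group sits at the floor, the size of a difference depends on the floor chosen. A gene was held at a signal of 1000 or more, and the 7183 genes held in at least 3 cells were tested; this left out Rax, Sox9 and Tbx5.

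Log2 values of the cells of a type and stage were averaged into 9 samples and analysed in R 4.3.3 by lmFit and trended eBayes of limma 3.58.1 (Benjamini-Hochberg adjustment, threshold 0.05), with 1 mean per cell type and 6 residual degrees of freedom, or 5 where P0 ganglion cells had their own mean. The prior degrees of freedom were infinite for the ganglion minus amacrine and photoreceptor comparisons and 40.2 for P0 minus embryonic ganglion cells. Stage and type are partly confounded, and no stage term was fitted. The fit was tested on simulated data in which 200 of the 7183 genes were shifted. Mean false calls per simulation were 24.45 for photoreceptors, 12 for ganglion minus amacrine and 2.1 for P0 minus embryonic ganglion cells. Both the photoreceptor and the ganglion minus amacrine comparison had more than the nominal share. P0 ganglion cells were set against P0 amacrine and E12.5 ganglion cells without a test. The named genes were the 8 factors, the 3 genes most correlated with each tested factor, and up to 4 genes of each pathway list per comparison with the largest difference. The factors, the lists and the tests were chosen with earlier results of these data known. Alternatives were the floor (100 or 500), quantile normalization, the mean over probe sets, every probe set on its own, no filter or at least 5 cells, the median over cells, eBayes without trend, variances of each gene alone, leaving out each cell, and detection at 500 or 2000. Precision is limited by the number of arrays. Sequences came from RefSeq promoter tables, read with Python 3.11.15.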

Additional observations from a re-analysis of the deposited data

Results flagged for a closer look

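In the 5 P0 amacrine cells, Six6 in cell F6 had a log2 signal of 13.34 while the other 4 were at the floor of 7.64, and Lhx2 in cell D1 had 13.13 with the other 4 likewise at the floor. Both passed Dixon's 95% limit, but with the other 4 cells all at the floor the gap equals the whole range, so any cell above the floor would pass: the mark says only that 1 cell of the 5 was above it. In all, 8 sets of cells were tested in this way. The nominal rate of the limit, 1 in 20, does not hold where values are tied at the floor.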

How the results depend on the processing

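No paired analysis was possible because the replicate numbers only name cells: the labels tie no ganglion, amacrine or photoreceptor cell to a shared animal, litter or batch.

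Ganglion minus amacrine: no factor passed under any alternative. The 5 genes called became 1 with a floor of 500, 10 with quantile normalization, 1 with the mean over probe sets, 31 without a filter on dim genes, 0 with the median over cells, 8 with variances of each gene alone, 2 with every probe set tested and 0 without the adult rod and the E16.5 amacrine cell; leaving out 1 cell gave 1 to 9. Signs turned for Six6 without those 2 cells (1.10; leave-one-out range -1.10 to 1.10), for Lhx2 with a floor of 500 (-0.018) and without those cells (-0.49; range -0.49 to 0.60), and for Vax2 with quantile normalization (-0.26) and the median over cells (-0.25; range -0.32 to 2.10).

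Photoreceptors minus ganglion and amacrine cells: the 153 genes became 44 with the mean over probe sets, 56 without a filter, 100 with a filter of 5 cells, 47 with the median, 51 with variances of each gene alone and 32 without the rod and the E16.5 cell; leaving out 1 cell gave 39 to 162, the lowest without the E16.5 amacrine cell. The 1 factor called, Pax6, became 0 with probe sets averaged (-0.89, adjusted p 0.677), without a filter (-5.14, 0.0991) and with variances of each gene alone (-5.14, 0.106), and 0 to 1 when 1 cell was left out (-6.71 to -3.58). Signs turned without the rod and the E16.5 cell for Six3 (0.26) and Six6 (2.41; leave-one-out range -1.18 to 1.44).

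P0 minus embryonic ganglion cells: no factor passed under any alternative. The 2 genes called became 0 with a floor of 100, the mean over probe sets, a filter of 5 cells, eBayes without trend or every probe set tested, 417 without a filter, 81 with the median, 13 with variances of each gene alone and 109 without the rod and the E16.5 cell; leaving out 1 cell gave 0 to 11. Pax6 turned with the mean over probe sets (-0.39; range -0.14 to 0.30), and leaving out 1 cell turned Six3 (range -1.55 to 0.40) and Vax2 (-1.34 to 0.10). The cause of these changes was not tested. The choice without the rod and the E16.5 cell was made after seeing the data. Of 96 recounts of cells holding a factor, 81 stayed within 1.5 times the count given and 15 did not, among them Six3 in amacrine cells at a threshold of 2000 (0 cells) and Rax in ganglion cells after quantile normalization (2 cells).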

Other observations

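Rax, Sox9 and Tbx5 were outside the comparisons because fewer than 3 cells held them. In the fit without a filter on dim genes (18193 genes, limma), photoreceptors minus ganglion and amacrine cells gave 2.73 ± 0.51 (SE) for Rax with an adjusted p of 0.110, 1.17 ± 0.69 for Sox9 (0.448) and 0.82 ± 0.39 for Tbx5 (0.340). In ganglion minus amacrine cells the values were -0.40 ± 0.52, 0.29 ± 0.70 and -0.04 ± 0.40, all with an adjusted p of 1.

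Among the markers of other cells, lens and pigment epithelium genes were held only in some embryonic ganglion cells and 1 photoreceptor, at most 2 of 8 in any cell. Both E14.5 ganglion cells held 2 of these. Of 5 vascular and blood markers, 1 was held in each E14.5 and E15.5 ganglion cell and none in any other cell. What part transcripts of other cells have in the signals of these cells was not tested. Septin4, on the list of horizontal cell markers, was higher in photoreceptors by 5.38 ± 1.39 (adjusted p 0.0106, limma), from 97.6 in P0 cell H1 to 419128 in the adult rod. Without the adult rod the difference was 0.83 (adjusted p 0.769), without J6 4.93 (0.269), without photoreceptor E1 4.40 (0.0745) and without both the rod and J6 0.39 (0.905).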
